A study of Mus musculus with 80 samples.

Results

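The genes described here encode 5 subunits of the GABA-A receptor. They are the beta subunit genes Gabrb1 and Gabrb2, the gamma subunit genes Gabrg1 and Gabrg3, and the delta subunit gene Gabrd. They were taken by name from the count table, 5 of its 27179 genes, and the rule that picks them uses no measured value, although earlier results of these data were known when the group was chosen. RNA was measured in the hypothalamus, cerebellum, hippocampus, cortex and amygdala of C57BL/6 females (C57BL/6J in the study's methods). The virgin (V) females were never mated. The primiparous (P) females were paired with a male at 8 weeks of age, raised a first litter, and gave tissue 3 weeks after weaning according to the labels (the study's methods give a longer interval). Both states were matched for age, kept in one room and harvested on one day. Only the primiparous females lived with a male. Per the study's methods, virgin females were kept 8 to a cage, while each mated female was first penned with a male. Mating, pregnancy, nursing, that contact and the caging cannot be told apart. The whole hypothalamus and the left side of the other regions were used, and each library is labelled with a single region and animal. The 16 animals (8 virgin, 8 primiparous) gave 77 analysed libraries, with 8 per state in the hypothalamus and cortex, and 7 virgin and 8 primiparous in each of the other regions.

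GABA-A receptors are chloride channels made of subunits around a central pore, and they carry most of the fast inhibition in the brain. A typical receptor holds alpha and beta subunits together with a gamma or a delta subunit, and GABA binds where a beta and an alpha subunit meet. Receptors with a gamma subunit are found largely at synapses. Those with the delta subunit lie outside synapses, give a steady inhibition and respond strongly to neurosteroids such as allopregnanolone, whose levels change over pregnancy. In the cerebellum, delta subunits pair with the alpha6 subunit in granule cells. Gabrg1 is also expressed by astrocytes.

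Most of these genes lie in clusters with genes of alpha subunits. Positions are given for the GRCm38 (mm10) assembly with GENCODE M21 gene models. Gabrg1 (Entrez 14405, chr5:70751047-70842617, minus strand) and Gabrb1 (Entrez 14400, chr5:71658113-72149037, plus strand) lie at the ends of a cluster with Gabra2 and Gabra4 between them. The gap from Gabrg1 to Gabra2 is 115.0 kb, and the gap from Gabra2 to Gabra4 is 473.9 kb. Gabrb1 and Gabra4 are head to head, so that exons of both overlap on opposite strands. The strand setting of the read counting is not given in the sources used here, so reads from that overlap cannot be assigned. Gabrb2 (Entrez 14401, chr11:42419757-42629028, plus strand) lies 98.7 kb from Gabra6. Gabrg3 (Entrez 14407, chr7:56716465-57387188, minus strand) lies 20.5 kb from Gabra5. Gabrd (Entrez 14403, chr4:155384980-155398112, minus strand) has no other receptor gene of these lists beside it.

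The promoters of 3 genes are shown because Gabrb2 and Gabrg1 differed between states in the hypothalamus, as described further on, while Gabrb1 did not pass the test there. Gabrb1 is a close relative of Gabrb2 and lies at the other end of the cluster that holds Gabrg1. Each sequence is from RefSeq on GRCm38, reads 5′ to 3′ and covers 250 bases before to 50 bases after the most upstream listed start. Capitals mark matches to the motifs searched. The windows are chr5:71657671-71657970 on the plus strand for Gabrb1, chr11:42420190-42420489 on the plus strand for Gabrb2 and chr5:70842568-70842867 on the minus strand for Gabrg1. For Gabrb1 and Gabrb2 the RefSeq starts are not the GENCODE gene starts given above. The Gabrb1 window ends before the GENCODE start, and the Gabrb2 window lies inside the GENCODE gene.

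Gabrb1: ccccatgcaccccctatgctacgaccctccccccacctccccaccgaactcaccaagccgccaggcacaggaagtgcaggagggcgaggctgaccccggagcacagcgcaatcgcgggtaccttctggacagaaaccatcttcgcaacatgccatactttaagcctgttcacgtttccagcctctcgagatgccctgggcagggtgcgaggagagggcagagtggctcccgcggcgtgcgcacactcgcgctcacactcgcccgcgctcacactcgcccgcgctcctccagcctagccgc
Gabrb2: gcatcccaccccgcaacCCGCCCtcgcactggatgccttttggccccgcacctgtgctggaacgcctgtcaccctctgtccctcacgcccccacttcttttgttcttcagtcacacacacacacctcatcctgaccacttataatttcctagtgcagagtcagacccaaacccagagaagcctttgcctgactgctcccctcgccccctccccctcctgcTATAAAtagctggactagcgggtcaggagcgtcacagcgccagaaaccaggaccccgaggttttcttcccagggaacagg
Gabrg1: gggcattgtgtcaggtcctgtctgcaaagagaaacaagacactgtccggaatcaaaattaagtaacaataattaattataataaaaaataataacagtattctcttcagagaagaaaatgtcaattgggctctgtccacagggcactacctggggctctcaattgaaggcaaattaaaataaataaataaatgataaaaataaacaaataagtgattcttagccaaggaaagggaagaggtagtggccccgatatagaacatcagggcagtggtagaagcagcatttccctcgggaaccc

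The motifs searched on both strands were the TATA box (TATAAA), the Sp1 GC box (GGGCGG), the E-box (CACGTG), the cAMP response element (TGACGTCA) and the Egr motif (GCGTGGGCG). They occur in 13.6%, 35.7%, 7.15%, 1.79% and 0.612% of 32851 mouse promoter windows of the same length. Gabrb2 held 2 matches, a TATA box shortly before the start and a GC box at the upstream end, seen here as the reverse complement. The Gabrb1 and Gabrg1 windows held 0 matches each. Gabrg3 held 1 match, a GC box. The windows differed in base composition. Gabrb1 had 66.0% GC with 25 CpG dinucleotides, Gabrg3 had 61.0% with 13, Gabrb2 had 59.0% with 11, and Gabrg1 had 38.3% with 3, where the median of all windows was 52.7% with 7. A match is only a run of letters, and its absence says only that these letters are not in the window.

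The libraries held 7959192 to 37871854 reads on genes (median 17623886). Values below are CPM, the count of a gene scaled to the same total of counted reads in every library. Tests took in the 13016 genes that reached 5 CPM in 8 or more libraries, all 5 subunit genes among them. The libraries of the hypothalamus, cerebellum, hippocampus and cortex carried markers of their own region. Dentate granule cell markers summed to 209 to 426 CPM in the hippocampus, and cortical excitatory neuron markers to 728 to 1127 CPM in the cortex. The amygdala list (Lhx6, Nr2f2, Dlx1, Dlx5 and Tac2) did not set the amygdala apart. It summed to 113 to 192 CPM there and to 113 to 148 CPM in the hypothalamus. Markers of hypothalamic neurons (Hcrt, Pmch, Oxt, Avp and Agrp) summed to 776 to 1421 CPM in the hypothalamus and to at most 70.4 CPM in any other region, and those of cerebellar granule cells summed to 2905 to 3978 CPM in the cerebellum. Some libraries stood apart, in every region. Pituitary markers reached 171 CPM in the primiparous amygdala, 121 in the primiparous cerebellum and 117 in the primiparous cortex. The medians of these groups were 3.6, 5.89 and 1.24 CPM. Choroid plexus markers reached 3845 CPM in the hippocampus and 3518 CPM in the cerebellum. Thalamus markers reached 166 CPM in the virgin hippocampus, and olfactory bulb markers ran from 9.19 to 366 CPM in the cortex. In the hypothalamus of virgin animal 4490, markers of the thalamus summed to 210 CPM against 57.2 to 94.7 in the other 15 libraries, and pituitary markers summed to 180 CPM. Pituitary markers also summed to 85.4 and 141 CPM in the hypothalamus of primiparous animals 414 and 427, where the 15 libraries other than that of animal 4490 had a median of 9.63. In the hippocampus of primiparous animal 413, cerebellar granule cell markers summed to 296 CPM against 30.3 to 44.8 in the other 14 libraries. Animal numbers have 3 digits in 2 virgin and 7 primiparous females and 4 digits in 6 virgin females and 1 primiparous female, so this numbering is nearly split by state, and what it marks is not given in the sources used here.

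The 5 genes had different regional patterns. Gabrd and Gabrb2 were highest in the cerebellum, Gabrg1 and Gabrg3 were highest in the hypothalamus, and Gabrb1 was similarly high in the hypothalamus, hippocampus and amygdala. Gabrd spanned the widest range, from 228 ± 24.9 CPM (SD, n = 15) in the cerebellum to 2.15 ± 2.12 CPM (n = 16) in the hypothalamus. It was 77.8 ± 9.9 CPM in the cortex (n = 16), 41.6 ± 9.1 in the amygdala (n = 15) and 25.7 ± 5.74 in the hippocampus (n = 15). The cerebellum was 2.72-fold above the cortex (adjusted p = 5.4e-17, edgeR), the cortex 1.84-fold above the amygdala (adjusted p = 1.86e-08), and the amygdala 1.62-fold above the hippocampus (adjusted p = 7.34e-06). The hippocampus was 14.1-fold above the hypothalamus. In the hypothalamus the Gabrd values rested on 5 to 116 reads per library, and 1 of 16 libraries reached the 5 CPM of the filter, so the gene entered the tests through the other regions and its hypothalamus contrasts are a description.

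**Figure D1:**
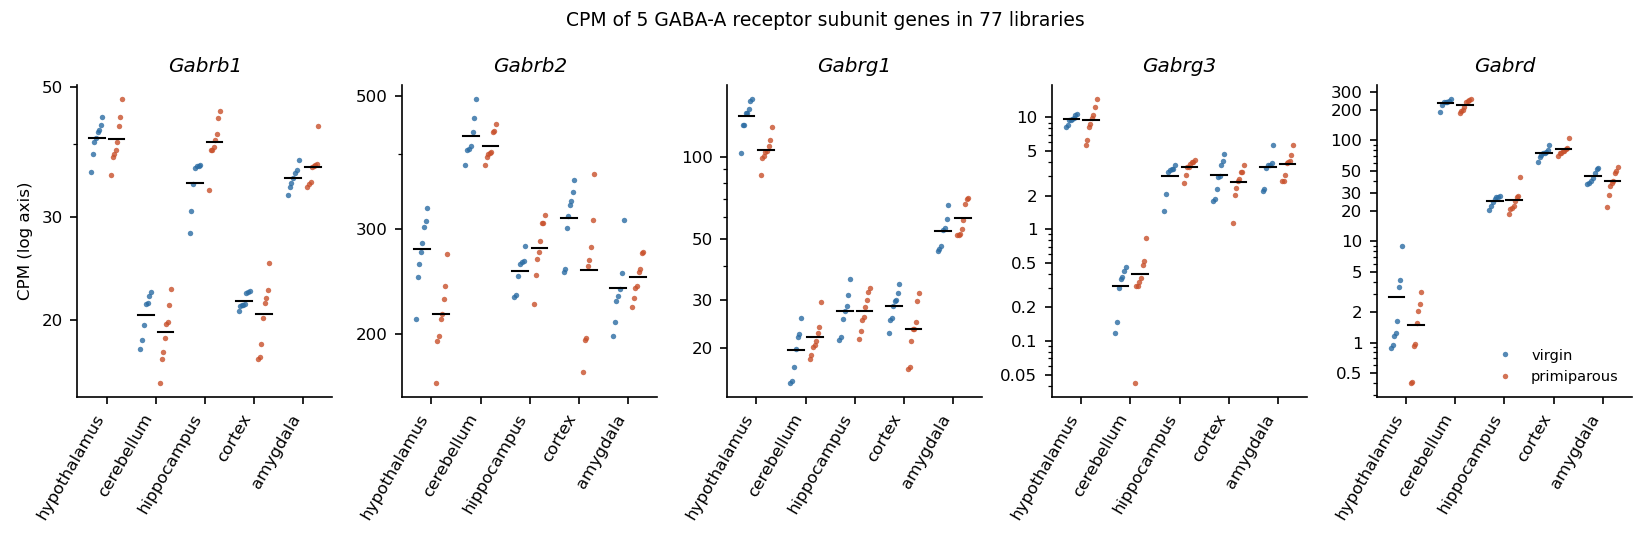
CPM on a log axis of the 5 genes in each of the 77 libraries, by region, with 1 point per library (blue, virgin; orange, primiparous) and a bar at each group mean. Gabrd runs from 0.4 to 258 CPM and Gabrb2 only from 166 to 495 CPM.

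Gabrb2, the most evenly expressed of the 5 genes, had 420 ± 31.1 CPM in the cerebellum (SD, n = 15). It had 284 ± 59.9 CPM in the cortex (n = 16), 268 ± 28.0 in the hippocampus (n = 15), 247 ± 45.6 in the hypothalamus (n = 16) and 244 ± 28.0 in the amygdala (n = 15). The cerebellum was 1.38-fold above the cortex (adjusted p = 5.32e-09, edgeR). Cortex and hippocampus did not differ beyond their spread (adjusted p = 0.463), nor did hypothalamus and amygdala (adjusted p = 0.0696) or hippocampus and amygdala (adjusted p = 0.0925). The tests also correct for the makeup of each library. On their log2 scale hypothalamus minus amygdala was −0.14, although the CPM mean was slightly higher in the hypothalamus. With a correction for gene length and GC content, Gabrb2 passed for hippocampus minus cortex and for hypothalamus minus amygdala (−0.21 each on the log2 scale). Without a filter on low counts Gabrb2 passed for hippocampus minus amygdala (0.19).

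Gabrg1 had 123 ± 23.8 CPM in the hypothalamus (SD, n = 16), about double its level in the amygdala (56.7 ± 8.5 CPM, n = 15). The fold on the TMM scale, which also corrects for the makeup of each library, was 1.96 (adjusted p = 4.64e-18, edgeR). Hippocampus (27.3 ± 4.41 CPM) and cortex (26.0 ± 5.15 CPM) did not differ beyond their spread (adjusted p = 0.278), and the cerebellum was lowest with 20.8 ± 3.88 CPM (n = 15). Gabrg3 had the same highest and lowest regions as Gabrg1. It had 9.57 ± 2.14 CPM in the hypothalamus, 3.73 ± 1.05 in the amygdala, 3.31 ± 0.75 in hippocampus, 2.86 ± 0.939 in cortex and 0.359 ± 0.189 in cerebellum, where 1 to 20 reads lay behind each value. The hypothalamus was 2.34-fold above the amygdala, and the cortex 8.64-fold above the cerebellum. Gabrg3 reached the 5 CPM of the filter in all 16 hypothalamus libraries and in 2 of 15 amygdala libraries only, so it entered the tests through the region where it is high, and the folds given for it are a description.

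Gabrb1 was high in 3 regions and lower in the other two. Hypothalamus (40.9 ± 3.33 CPM, SD, n = 16), hippocampus (37.5 ± 4.71 CPM, n = 15) and amygdala (35.8 ± 2.45 CPM, n = 15) did not differ from each other beyond their spread (adjusted p from 0.31 to 0.884, edgeR). Cortex (21.0 ± 2.04 CPM, n = 16) and cerebellum (19.7 ± 2.11 CPM, n = 15) were lower, the amygdala being 1.73-fold above the cortex (adjusted p = 1.89e-23, edgeR). Cortex and cerebellum differed by 1.15-fold (adjusted p = 0.000306, edgeR). The variation between animals was small for Gabrb1, with a coefficient of variation of 6.83% to 12.6% by region, and large for Gabrd in the hypothalamus, at 98.6%.

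Of 10 tests between 2 regions, 9 passed the threshold for Gabrg1 and 7 each for Gabrb1 and Gabrb2 (adjusted p under 0.05, edgeR). Gabrd and Gabrg3 are left out of this count, since they passed the filter only through the regions where they are high. Most genes differ between brain regions. Between the hypothalamus and the other regions, the share of all 13016 genes past the threshold was 81.1% (cerebellum), 73.0% (hippocampus), 77.7% (cortex) and 71.0% (amygdala). It was 78.7%, 79.9% and 80.2% between the cerebellum and hippocampus, cortex and amygdala. It was 67.0% between hippocampus and cortex, 58.7% between hippocampus and amygdala, and 62.5% between cortex and amygdala. The share for these 3 genes is near that background.

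Levels of different genes were compared per kilobase of exon. Gabrb2 had the highest level of the 5 genes per kilobase in the hypothalamus (38.8 ± 7.17 CPM per kb, SD, n = 16), hippocampus (42.1 ± 4.4), cortex (44.7 ± 9.42) and amygdala (38.4 ± 4.4). In the cerebellum Gabrd (79.1 ± 8.65 CPM per kb, n = 15) and Gabrb2 (66.1 ± 4.89) were close, and their order turned when the longest transcript was used as the length (84.0 and 105). In the hypothalamus, the second gene was Gabrg1 with 15.6 ± 3.03 CPM per kb. Gabrd (0.745 ± 0.735) and Gabrg3 (0.802 ± 0.18) were lowest there over both states. Their order turned between states, with 0.976 and 0.805 in virgin females and 0.515 and 0.799 in primiparous females. Gabrd made up 1.26% of the summed level per kilobase of the 5 genes in hypothalamus and 53.0% in cerebellum (0.858% and 43.1% with the longest transcript as the length), while Gabrg1 made up 26.5% in the hypothalamus and 1.77% in the cerebellum. Gabrb1, which has 13.84 kb of exons, held 0.951% to 5.01% and Gabrg3 0.0202% to 1.36%. The delta subunit gene was second in the hippocampus (8.92 ± 1.99 CPM per kb), the cortex (27.0 ± 3.44) and the amygdala (14.4 ± 3.16).

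The study asked which genes differ between virgin and primiparous females long after weaning. In the hypothalamus, 2 of the 5 genes, Gabrb2 and Gabrg1, were lower in primiparous than in virgin females, and 0 were higher. Over all 13016 genes, 22.6% passed the threshold in this region and 11.8% did so with a lower level in primiparous females (edgeR, adjusted p under 0.05). Gabrb2 ranged from 212 to 325 CPM in the 8 virgin libraries (median 279) and from 166 to 272 CPM in the 8 primiparous libraries (median 214). The groups overlapped, but all 8 primiparous libraries lay below the virgin median, and 5 virgin libraries lay above every primiparous one. The means were 277 ± 36.2 and 216 ± 31.8 CPM (SD, n = 8 each), a log2 fold change of −0.38 (standard error 0.09, adjusted p = 0.00524, edgeR). Gabrg1 ranged from 103 to 163 CPM in virgin females (median 144) and from 85.5 to 128 CPM in primiparous females (median 104). Here 7 of the 8 virgin libraries lay above every primiparous library, and the remaining one, of animal 409, was among them. The means were 141 ± 19.0 and 106 ± 12.3 CPM, a log2 fold change of −0.44 (standard error 0.08, adjusted p = 0.00181, edgeR). In bulk tissue, fewer cells of a type and less RNA per cell cannot be told apart.

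**Figure D2:**
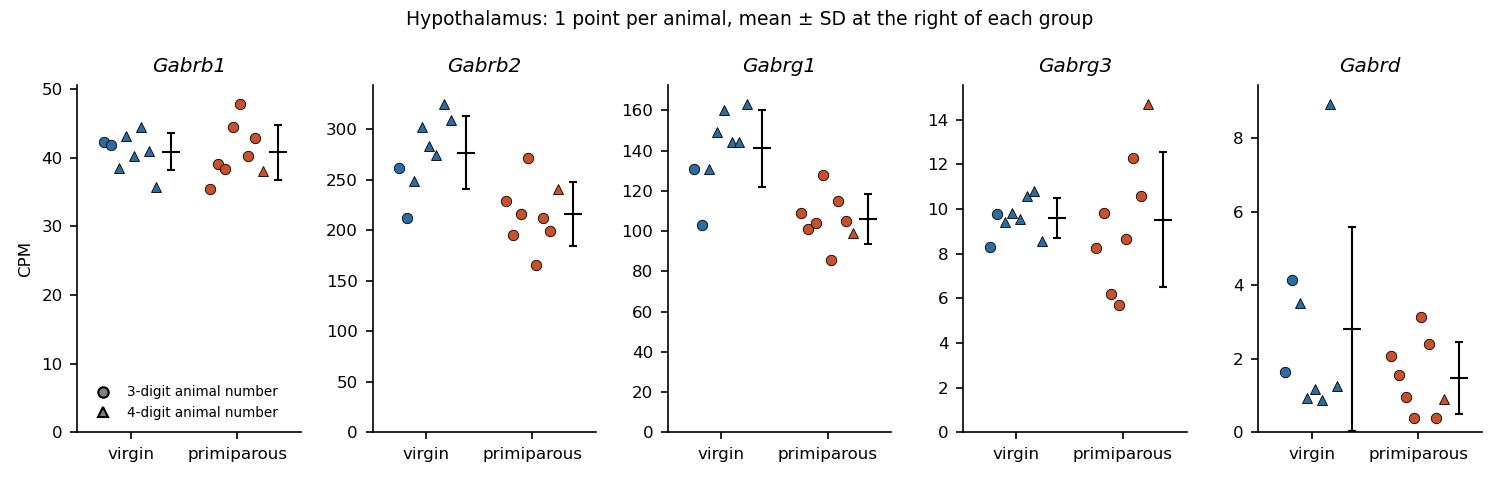
CPM of the 5 genes in the hypothalamus of each animal (virgin, blue; primiparous, orange; circles, 3-digit animal numbers; triangles, 4-digit numbers), with the mean and SD of 8 animals beside each group and each vertical axis starting at 0. Gabrb2 and Gabrg1 are lower in primiparous females, and the highest Gabrd value, 8.92 CPM, is from virgin animal 4490.

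The other 3 genes did not pass the test in the hypothalamus. Gabrb1 had 35.8 to 44.5 CPM in virgin females (median 41.5) and 35.4 to 47.8 CPM in primiparous females (median 39.7). Its log2 fold change was −0.03, with a 95% interval of −0.17 to 0.11, so that a difference as large as that of Gabrb2 lay outside the interval. Gabrg3 had 8.29 to 10.8 CPM in virgin females (median 9.66) and 5.71 to 14.7 CPM in primiparous females (median 9.26), a log2 fold change of −0.04 with an interval of −0.37 to 0.28. The primiparous animals varied more in this gene (SD 3.01 CPM) than the virgin animals (SD 0.887 CPM). Gabrd had 0.889 to 8.92 CPM in virgin females (median 1.44) and 0.4 to 3.14 CPM in primiparous females (median 1.27). Its log2 fold change of −0.97 (standard error 0.48, adjusted p = 0.141, edgeR) had an interval of −1.99 to 0.05, and it was −0.47 without virgin animal 4490, the library with the high thalamus and pituitary markers, and −0.33 without the 3 libraries with high pituitary markers. One fit of all 10 groups put it past the threshold at −0.98, with a spread shared with regions where Gabrd is high, so that call is not used here.

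**Figure D3:**
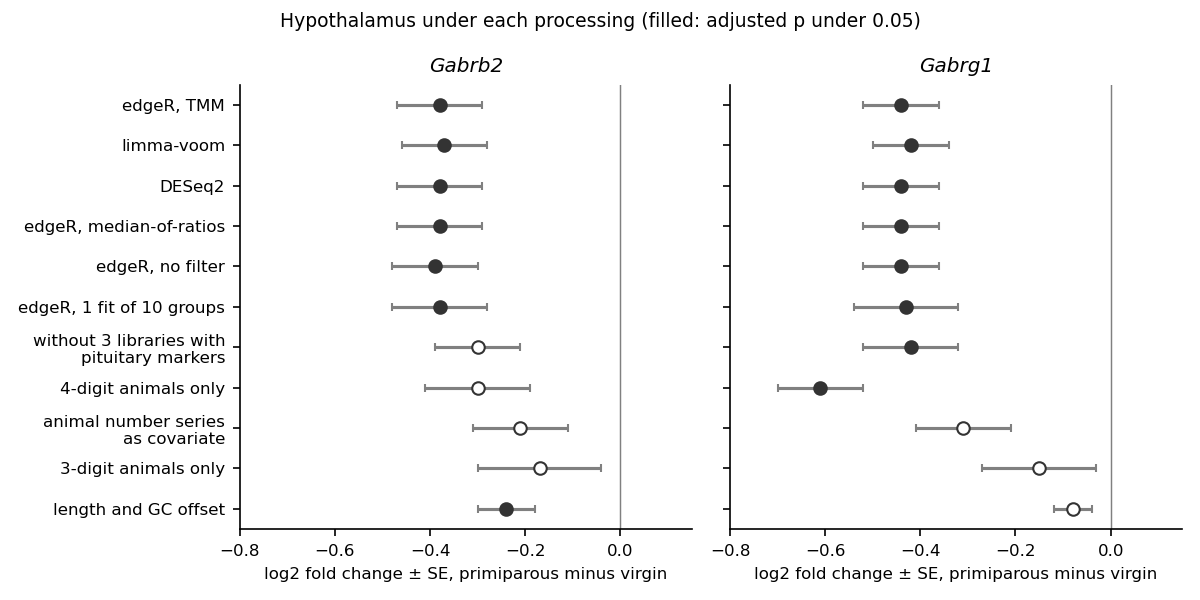
Log2 fold change, primiparous minus virgin, of Gabrb2 and Gabrg1 in the hypothalamus with its standard error under 11 ways of processing; filled points passed an adjusted p of 0.05, and the fit of 4-digit animals holds 1 primiparous animal. Every value is below 0, from −0.39 to −0.17 for Gabrb2 and from −0.61 to −0.08 for Gabrg1.

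The numbering of the animals moved with the state. For Gabrb2, the 2 virgin animals with 3-digit numbers had 212 and 262 CPM, and the 6 with 4-digit numbers had 249 to 325 CPM. The 7 primiparous animals with 3-digit numbers had 166 to 272 CPM, and the 1 with a 4-digit number had 241 CPM. Gabrg1 had 103 and 131 CPM in the virgin animals with 3-digit numbers and 131 to 163 CPM in those with 4-digit numbers, against 85.5 to 128 and 98.9 CPM in the primiparous animals. With the numbering as a covariate, the log2 fold changes were −0.21 (adjusted p = 0.328) for Gabrb2 and −0.31 (adjusted p = 0.192) for Gabrg1, and 3 genes in all passed the threshold. Among the 3-digit animals they were −0.17 and −0.15 (adjusted p = 0.999 each), and among the 4-digit animals −0.3 and −0.61. The last pair of values sets 1 primiparous animal against 6 virgin animals, which alone give the spread, and is a description. With each library's trend in gene length and GC content removed, Gabrb2 was at −0.24 (adjusted p = 0.0431) and Gabrg1 at −0.08 (adjusted p = 0.366), and 391 genes passed the threshold in place of 2939. Without the 3 libraries with high pituitary markers, a comparison chosen after the data were seen, Gabrb2 was at −0.3 (adjusted p = 0.0531) and Gabrg1 at −0.42 (adjusted p = 0.0238). Both genes passed in each of the 16 fits that left out 1 library.

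In the cerebellum, hippocampus, cortex and amygdala, 0 of the 5 genes passed the threshold in edgeR or limma-voom. DESeq2 called 0 of those it gave an adjusted p, which left out Gabrg3 in the cerebellum, hippocampus and amygdala. Over all genes, edgeR called 0.707% in the cerebellum (92 genes, and 6 to 898 without 1 library) and 0.0% in each of the other 3 regions (hippocampus, cortex, amygdala), where 961, 1277 and 1544 genes had an unadjusted p under 0.05. DESeq2 called 13, 0 and 106 genes in those 3 regions, and limma-voom called 0 in each. At an unadjusted p under 0.05, edgeR found 1 of the 5 genes in any of these regions, Gabrb1 in the hippocampus, limma-voom also found Gabrb2 in the cortex, and DESeq2 found Gabrb1 and Gabrb2 in the hippocampus. Gabrb1 in the hippocampus ranged from 28.1 to 36.8 CPM in 7 virgin libraries (median 36.4) and from 33.3 to 45.5 CPM in 8 primiparous libraries (median 40.0). All primiparous libraries but that of animal 413, which carried the cerebellar markers, lay above every virgin library. Primiparous females were 0.24 higher on the log2 scale (standard error 0.07, adjusted p = 0.564, edgeR), so the difference failed the correction for 13016 genes.

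**Figure D4:**
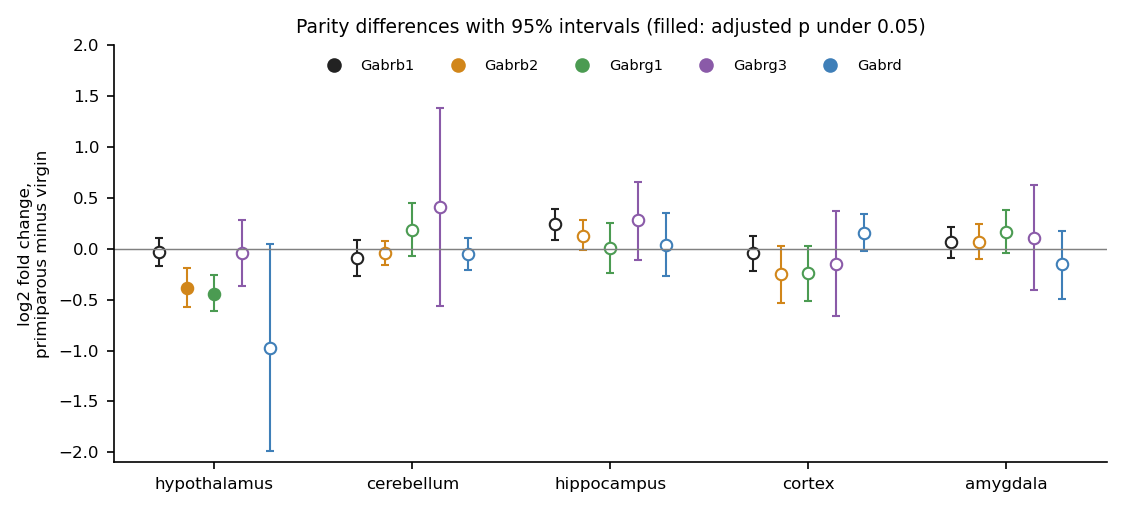
Log2 fold change, primiparous minus virgin, of the 5 genes in each region with its 95% interval; filled points passed an adjusted p of 0.05. Gabrb2 and Gabrg1 in the hypothalamus, at −0.38 and −0.44, are the 2 filled points, and the widest intervals belong to Gabrd in the hypothalamus and Gabrg3 in the cerebellum.

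In the cortex Gabrb2 and Gabrg1 were also below 0 without passing the test, and with the length and GC correction they were at −0.14 and −0.02. Gabrb2 had 254 to 362 CPM in virgin cortex (median 322) and 173 to 370 CPM in primiparous cortex (median 263), a log2 fold change of −0.25 with an interval of −0.53 to 0.03 (adjusted p = 0.5, edgeR). Gabrg1 had 22.7 to 34.1 CPM (median 29.0) and 16.7 to 31.8 CPM (median 23.5), a log2 fold change of −0.24 with an interval of −0.51 to 0.03 (adjusted p = 0.502). The delta subunit gene lay on the other side of 0 in the cortex, at 0.16 with an interval of −0.02 to 0.34. In the amygdala the log2 fold changes were 0.07 for both Gabrb1 and Gabrb2, 0.17 for Gabrg1, 0.11 for Gabrg3 and −0.15 for Gabrd. In the cerebellum, where Gabrb2 and Gabrd are highest, they were −0.04 (interval −0.16 to 0.08) and −0.05 (interval −0.21 to 0.11). Over the 5 genes, the median log2 fold change was −0.38 in the hypothalamus, −0.15 in the cortex and −0.04 in the cerebellum. It was 0.07 in the amygdala and 0.13 in the hippocampus. In the hypothalamus the median was −0.21 with the numbering covariate and −0.08 with the length and GC correction. In the cortex these settings gave −0.06 and 0.01. The medians are a description and are not set against all genes. Gabrd in the hypothalamus and Gabrg3 outside it reached 5 CPM in few or no libraries. Without Gabrd, the hypothalamus values were −0.44 (Gabrg1), −0.38 (Gabrb2), −0.04 (Gabrg3) and −0.03 (Gabrb1). The cortex median is the value of Gabrg3.

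The parity difference was then compared between regions, as hypothalamus minus another region. Of 20 tests of the 5 genes, 7 passed the threshold. The share of all genes past it was 15.5% against the cerebellum, 17.2% against the hippocampus, 18.2% against the amygdala and 0.0% against the cortex. In the last of these tests 336 genes had an unadjusted p under 0.05, and limma-voom also called 0. These comparisons share the hypothalamus libraries. None of the 7 calls was of Gabrd or Gabrg3, which passed the filter only through the regions where they are high. The numbering of the animals was not used as a covariate in these comparisons. For Gabrb2 the log2 difference of differences was −0.53 against the hippocampus (standard error 0.12, adjusted p = 0.00454, edgeR), −0.45 against the amygdala (adjusted p = 0.0117) and −0.35 against the cerebellum (adjusted p = 0.0276). For Gabrg1 it was −0.64 against the cerebellum (standard error 0.15, adjusted p = 0.00599, edgeR), −0.6 against the amygdala (adjusted p = 0.00263) and −0.45 against the hippocampus (adjusted p = 0.0315). Gabrb1 passed against the hippocampus at −0.28 (adjusted p = 0.043), but not with median-of-ratios size factors (−0.27, adjusted p = 0.0523) or the length and GC correction (0.01). Against the cortex, Gabrb2 was at −0.13 and Gabrg1 at −0.2 (adjusted p = 1.0 each). The same animals gave all regions. With the animal as a replicate block, Gabrb2 against the cerebellum (−0.32, adjusted p = 0.0551) and Gabrg1 against the hippocampus (−0.46, adjusted p = 0.0505) no longer passed, and the other 5 did. With the length and GC correction alone, Gabrb2 against the hippocampus passed (−0.34, adjusted p = 0.0363, edgeR) and the other 6 did not. With the block and that correction together, 0 of the 20 passed, with Gabrb2 at −0.31 against the hippocampus (adjusted p = 0.164) and Gabrg1 at −0.02 (adjusted p = 0.934).

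The ratio of Gabrb2 to Gabrb1 compares the 2 beta subunit genes within a library, so that library size cancels. In the hypothalamus the mean log2 ratio of their CPM was 2.75 ± 0.24 (SD, n = 8) in virgin females and 2.4 ± 0.3 (n = 8) in primiparous females. The virgin libraries ran from 2.34 to 3.11 and the primiparous libraries from 1.8 to 2.69. The difference of −0.35 had an exact p of 0.0159 over 12870 splits (two-sided permutation test) and 0.0793 after adjustment over the 5 regions, and so did not pass. In the cortex the difference was −0.22 (adjusted exact p = 0.175), and −0.11 for the hippocampus (adjusted exact p = 0.518). It was 0.05 for the cerebellum (adjusted exact p = 0.668) and 0.01 for the amygdala (adjusted exact p = 0.906). The level of the ratio differed by region, from 2.75 in the virgin hypothalamus to 4.39 in the virgin cerebellum. The numbering of the animals was not used as a covariate for the ratio. In the hypothalamus of 3-digit animals, mean Gabrb2 was 237 CPM in 2 virgin and 213 CPM in 7 primiparous females. Mean Gabrb1 was 42.1 and 41.2 CPM in the same animals.

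The neighbours in the chromosome clusters were given the same comparison in the hypothalamus, and differences between neighbours were not tested. On chromosome 5, Gabrg1, Gabra2 and Gabra4 were lower in primiparous females and Gabrb1 beside them did not pass. With the numbering covariate Gabra2 (adjusted p = 0.196, edgeR) and Gabra4 (adjusted p = 0.263) did not pass either, like Gabrg1. Gabra2, which encodes an alpha subunit found at many synapses, went from 50.9 ± 4.81 to 40.5 ± 3.48 CPM (log2 fold change −0.35, adjusted p = 0.00234, edgeR). Gabra4, whose subunit often pairs with the delta subunit outside synapses, went from 51.8 ± 12.3 to 37.2 ± 6.89 CPM (−0.49, adjusted p = 0.00753). On chromosome 11, Gabra6, a neighbour of Gabrb2, was at 0.322 ± 0.385 and 0.477 ± 0.743 CPM, its main level being in the cerebellum (658 ± 43.1 CPM in virgin females, n = 7). On chromosome 7, Gabra5 was at −0.09 (adjusted p = 0.268) and Gabrg3 at −0.04. With the length and GC correction, none of Gabra2, Gabra4, Gabra5 and Gabra6 passed.

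**Figure D5:**
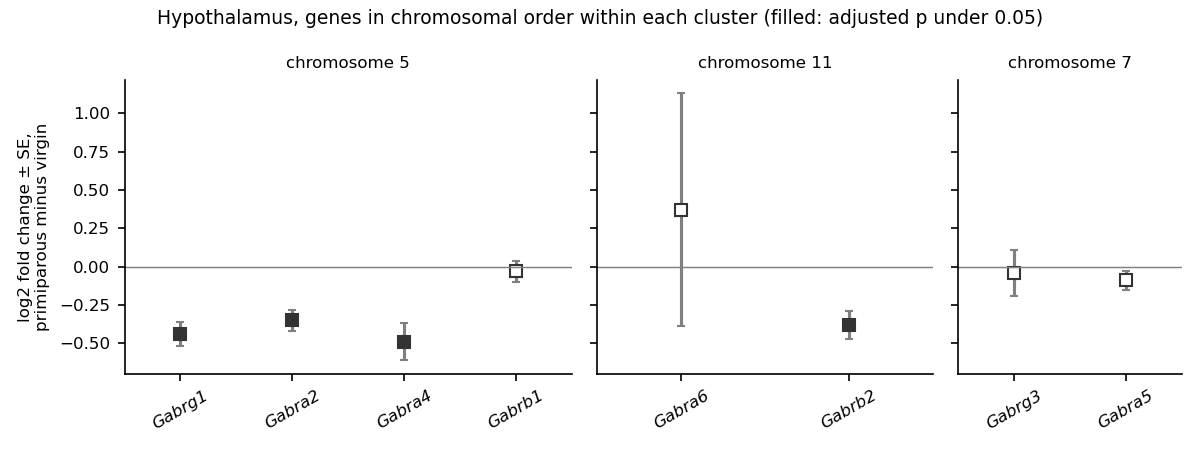
Log2 fold change with its standard error, primiparous minus virgin, in the hypothalamus for the receptor genes of 3 clusters in chromosomal order (distances not to scale); filled points passed an adjusted p of 0.05. On chromosome 5 the first 3 genes lie between −0.49 and −0.35 and Gabrb1 lies at −0.03.

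The other genes of GABA signalling moved in both directions in the hypothalamus, where 22.6% of all genes passed. Gabra3, a further alpha subunit gene, fell from 171 ± 17.6 to 143 ± 10.5 CPM (−0.27, adjusted p = 0.00442, edgeR). Of 21 genes for anchoring and trafficking of the receptor, 4 rose, 2 fell and 15 did not pass. Hap1, which helps return receptors to the membrane, rose by 0.29 (adjusted p = 0.000997, edgeR), and Nlgn2, the neuroligin of inhibitory synapses, rose by 0.26 (adjusted p = 0.00379). Of 8 genes for GABA synthesis, transport and breakdown, Slc32a1, the vesicular GABA transporter, rose by 0.32 (adjusted p = 0.0126) and Gad2, a GABA-making enzyme, fell by 0.19 (adjusted p = 0.0342). Of 9 genes for neuronal chloride transport, 2 rose and 2 fell. Slc12a2, the chloride importer NKCC1, fell by 0.21 (adjusted p = 0.0152), and the chloride channel family gene Clcn3 fell by 0.26 (adjusted p = 0.00319). Of 6 GABA-B receptor and auxiliary genes, 1 fell, Kctd12b (14.9 ± 2.47 to 10.9 ± 2.01 CPM, −0.47, adjusted p = 0.00867). Of 8 neurosteroid synthesis genes, 4 were tested and 0 passed. Tspo was at 0.41 (adjusted p = 0.0737) and Star at −0.25 (adjusted p = 0.0786). No gene of these lists passed in the 4 other regions or with the numbering covariate. With the length and GC correction 2 of the anchoring genes passed. Hap1 was one of them, at 0.12 (adjusted p = 0.038, edgeR), and Nlgn2 was not, at 0.06 (adjusted p = 0.373, edgeR).

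Markers of the main brain cell types were given the same comparison in the hypothalamus. All 5 neuronal markers were detected and summed to 2731 to 3039 CPM in virgin and 2601 to 2906 CPM in primiparous females, with 1 marker called higher and 2 lower, where 22.6% of all genes were called. The 6 astrocyte markers summed to 2627 to 3248 and 2597 to 3631 CPM, with 1 called lower. The 5 oligodendrocyte markers summed to 4999 to 5900 and 4784 to 5953 CPM, with 1 called in each direction, and 0 of the 5 microglial markers were called. No marker was at 0 in every hypothalamus library. The groups overlapped in each of the 16 marker lists, and the part of cell makeup in the Gabrb2 and Gabrg1 differences was not tested.

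Genes like each subunit gene over the 77 libraries were those with the same regional pattern. The measure is Pearson's r of log2(CPM + 4) over 77 libraries, which share animals, depth and region, so it is a description. Gabrb2 was like Top2b (r = 0.914) and Rsbn1l (0.904). Gabrd was most like Cdk16 (0.984), Fam131b (0.975) and Camk4 (0.951). Camk4, a calcium-dependent kinase, had 777 ± 104 CPM in the cerebellum (SD, n = 15) and 59.3 ± 8.56 CPM in the hypothalamus (n = 16), the same highest and lowest regions as Gabrd. Gabrg1 was most like AW551984 (0.971), Usp29 (0.97) and Zdbf2 (0.967), which are high in the hypothalamus. Gabrg3 was most like Ogfod1 (0.94), Celf6 (0.938) and Tspyl3 (0.937), and Gabrb1 was most like Nrp2 (0.929), Npy2r (0.921) and Robo1 (0.92). Among the subunit genes themselves, Gabrg1 and Gabrg3 had r = 0.84, and Gabrd had r = −0.92 with Gabrg3.

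Within groups the likeness was of another kind. Taking each library's deviation from the mean of its region and state, Gabrb2 was like Ppp3cb (r = 0.903 over 77 libraries) and Cadm2 (0.901), and Gabra4 reached 0.8. Ppp3cb, a calcineurin subunit gene, and Cadm2, a synaptic adhesion gene, were also lower in the primiparous hypothalamus, at −0.39 (adjusted p = 0.00124, edgeR) and −0.45 (adjusted p = 0.00227, edgeR), where 22.6% of all genes passed and 3 genes did so with the numbering covariate. The deviations of Gabrg1 were most like those of Tmem47 (0.776), Svip (0.767) and Tmed7 (0.761), and had r = 0.59 with Gabrb2. Those of Gabrb1 were like no gene above r = 0.469 (Atg12) and had r = 0.16 with Gabrb2. For Gabrg3 the highest r was 0.603 (Lrrk2), and Gabrd was like Rtn4r (0.645) and Dgkz (0.633). Depth, gene length and base composition can also make deviations alike between genes of the same libraries.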

How the data were processed

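RNA-seq was done on 5 brain regions of virgin and primiparous C57BL/6J females. Per the labels and the study's methods, the authors prepared NEBNext Ultra libraries from polyadenylated RNA, sequenced them single-end, aligned the reads to mm10 with HISAT2 and counted reads that map once with featureCounts and its inbuilt annotation. Deposited counts are whole numbers without normalization, for 27179 genes and 77 of 80 libraries, and the 3 others are not analysed here. The authors' deposited log2 table of 13016 genes gave gene symbols only. A symbol it gives to several identifiers was replaced by RefSeq's.

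Genes that reached 5 CPM in 8 or more libraries (13016) were tested with edgeR 4.0.16 in R 4.3.3 (TMM, robust quasi-likelihood F-test), each region alone, with Benjamini-Hochberg adjustment over all genes and a threshold of 0.05. Regions were compared in 1 fit of 10 groups, each as the mean of its states, and the parity difference between regions in fits of 4 groups. Intervals of log2 fold changes are the estimate ± the t quantile times the standard error. Alternatives were limma-voom (limma 3.58.1), DESeq2 1.42.0, median-of-ratios size factors, no filter, the number of digits of the animal number as a covariate or a subset, an offset that removes trends with gene length and GC content per library (known for 97.05% of genes), the animal as a block and leaving out each library. The fits were also run on simulated data, and the outcome is not reported here. Exon lengths are from GENCODE M21 and sequences from RefSeq. The replicate numbers are animal identifiers per the study's methods, so equal numbers pair the libraries. An animal's libraries of 2 regions deviated together only weakly (median r 0.0119 to 0.077, against −0.0129 to −0.00268 between animals). Deviations from a group mean sum to 0, so these 2 sets of values are not independent and do not test the pairing.

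Named genes are the 5 subunit genes, their cluster neighbours, up to 3 genes per pathway list with the smallest p in the hypothalamus and the genes with the 3 highest correlations with each subunit gene, over all libraries and as deviations within groups. The subunit genes and all lists were chosen with earlier results of these data known. Some genes of the family, the lists and the correlations are not reported here. The p-values measure the spread between animals.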

Additional observations from a re-analysis of the deposited data

Results flagged for a closer look

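Some single libraries lay far from the rest of their group, and such a gap is expected by chance in about 5% of groups. Among 50 groups of a gene, region and state, 4 had one. Gabrd stood at 8.92 CPM in the hypothalamus of virgin animal 4490, where the next virgin animal had 4.15 CPM and markers of the thalamus summed to 210 CPM. In the hippocampus of primiparous animal 413, Gabrd stood at 43.1 CPM with a next value of 27.9, and cerebellar granule cell markers summed to 296 CPM there. Gabrd stood at 106 CPM in the cortex of primiparous animal 427, with a next value of 83.4. Gabrb1 stood at 43.0 CPM in the amygdala of primiparous animal 421, with a next value of 36.9. The part of the markers in these values was not tested.

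The parity difference differed between the hypothalamus and another region in 7 of 20 tests of the subunit genes (edgeR interaction), where 15.5%, 17.2%, 18.2% and 0.0% of all genes passed against the cerebellum, hippocampus, amygdala and cortex. The log2 differences were −0.35 (cerebellum), −0.53 (hippocampus) and −0.45 (amygdala) for Gabrb2, −0.64 (cerebellum), −0.45 (hippocampus) and −0.6 (amygdala) for Gabrg1, and −0.28 (hippocampus) for Gabrb1. With the animal as a block, Gabrb2 against the cerebellum (adjusted p = 0.0551, edgeR) and Gabrg1 against the hippocampus (adjusted p = 0.0505) did not pass, and with the block and the length and GC correction together 0 of the 20 did. The value for Gabrb1 was 0.01 (adjusted p = 0.981, edgeR) with the length and GC correction. None of the 7 was of Gabrd or Gabrg3, and the numbering was not used as a covariate in these tests.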

How the results depend on the processing

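The 2 calls in the hypothalamus (Gabrb2 and Gabrg1) held under limma-voom, DESeq2, other size factors, no filter, 1 fit of 10 groups and in all fits without 1 library, where the log2 fold change ran from −0.44 to −0.34 for Gabrb2 and from −0.49 to −0.4 for Gabrg1. The count of called genes fell to 0 with the numbering covariate (−0.21 and −0.31) and among 3-digit animals (−0.17 and −0.15). It fell to 1 with the length and GC correction (Gabrg1 −0.08) and without the 3 libraries with pituitary markers (Gabrb2 −0.3, an alternative chosen after seeing the data). Among 4-digit animals Gabrb2 was at −0.3. Counts over all genes in the cerebellum, against 92, were 505 with DESeq2 and 416 with the length and GC correction. The cerebellum counts were 0 with the numbering covariate and 0 among 3-digit animals. Those in the hypothalamus ran from 2014 to 4119 without 1 library, against 2939, and the count was 1 among 3-digit animals. Among 4-digit animals 1 library stands for the primiparous state, so values there are descriptions. The causes of these changes were not tested.

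Outside the 4-digit animals, values near 0 changed sign without being called, and among 4-digit animals Gabrg3 was at 0.55. In the hypothalamus, Gabrg3 was also at 0.17 (covariate) and 0.12 (length and GC), and Gabrb1 at 0.18 (length and GC). Among 4-digit animals in the cerebellum, Gabrb1 was at 0.12, Gabrb2 at 0.08, Gabrg1 at −0.03 and Gabrd at 0.1. In the hippocampus, Gabrg1 was at −0.12 (covariate), −0.07 (3-digit animals), −0.2 (4-digit animals) and −0.07 (length and GC). In the cortex, Gabrb1 was at 0.01 (3-digit animals) and 0.15 (length and GC), and Gabrg3 at 0.03 (covariate), 0.28 (3-digit animals) and 0.01 (length and GC). Gabrb1 was at −0.03 in the amygdala with the length and GC correction. Without 1 library, Gabrg3 ran from −0.17 to 0.04 in the hypothalamus, and in the hippocampus Gabrg1 ran from −0.05 to 0.09 and Gabrd from −0.1 to 0.09, the lowest without primiparous animal 413.

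With the length and GC correction, which moved the median of all genes between cerebellum and amygdala from 0.027 to 0.123, Gabrb1 was at 0.05 for hypothalamus minus hippocampus and −0.04 for hippocampus minus amygdala, and for hippocampus minus cortex Gabrg1 was at −0.14 and Gabrg3 at −0.01. It took Gabrb2 past the threshold for hippocampus minus cortex (−0.21) and hypothalamus minus amygdala (−0.21). Without a filter Gabrb2 passed for hippocampus minus amygdala (0.19). For the parity difference between regions, the animal as a replicate block left 1 of 2 calls against the cerebellum. The length and GC correction left 0, 1 and 0 calls against the cerebellum, hippocampus and amygdala, and with the block 0, 0 and 0. It put Gabrb1 at 0.01 (0.0 with the block) against the hippocampus and at 0.21 (0.21) against the amygdala, and Gabrg3 at 0.08 (0.04) against the amygdala. Beside Gabrb2 against the cerebellum and Gabrg1 against the hippocampus, the block alone changed no call.

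The log2 ratio of Gabrb2 to Gabrb1 was at −0.03 in the cerebellum among 3-digit animals. Without 1 library it ran from −0.41 to −0.27 in the hypothalamus, past the threshold without primiparous animal 413 (−0.4) or virgin animal 409 (−0.41), from −0.29 to −0.17 in the cortex, past the threshold without primiparous animal 413, from −0.03 to 0.07 in the amygdala, from −0.15 to −0.06 in the hippocampus and from 0.02 to 0.09 in the cerebellum. Few reads limit Gabrd in the hypothalamus (5 to 116) and Gabrg3 in the cerebellum (1 to 20).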
